A study of Homo sapiens with 16 samples.

Results

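The 10 genes described here encode the enzymes and partners that write, copy and remove DNA methylation and the core of Polycomb repressive complex 2 (PRC2). They are DNMT1, UHRF1, DNMT3A, DNMT3B, TET1, TET3, EZH2, EZH1, SUZ12 and EED. They were chosen by name through their Ensembl gene identifiers, with earlier results of these data known. All 10 were found among the 26410 genes that both deposited tables list. UHRF1 had the largest fall of the 10 with doxorubicin, in Scr clones and in clones labelled TRPM2 KO, and EZH2 was lower in both as well. After doxorubicin, DNMT1 and UHRF1 were lower in libraries labelled TRPM2 KO than in Scr libraries, while none of the 10 genes passed the test between these genotypes without treatment or the test of whether the response to doxorubicin differed between them. The calls of EZH2 in Scr clones and of DNMT1 between genotypes lie close to the threshold and were lost when most single libraries were left out.

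DNA methylation sits on cytosines that precede guanines. When DNA is replicated, UHRF1 binds the half-methylated site and brings the maintenance methyltransferase DNMT1, which copies the mark to the new strand. DNMT3A and DNMT3B methylate sites that carried no mark, and TET enzymes oxidise the methyl group, a step towards its removal. PRC2 places methyl groups on lysine 27 of histone H3 through EZH2 or EZH1, and needs SUZ12 and EED for its activity. EZH2, DNMT1 and UHRF1 are known to be abundant in dividing cells, and EZH1 in cells that divide little.

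The libraries come from SH-SY5Y, a human neuroblastoma cell line, grown for 24 h without treatment or with doxorubicin, a chemotherapy drug that traps topoisomerase II and breaks DNA. Clones KO11 and KO28 are labelled TRPM2 KO and were made by CRISPR with a guide against TRPM2, which codes for a cation channel. Clones Scr13 and Scr16 received a scrambled guide, and all 4 clones carry the same donor with GFP and puromycin resistance and were selected with puromycin. Each clone gave 2 replicate libraries of poly(A) RNA per treatment, so each of the 4 groups (Scr or labelled TRPM2 KO, untreated or doxorubicin) holds 4 libraries from 2 clones. Libraries of 1 clone share that clone, and p-values over 4 libraries do not measure the spread over more clones. Sample labels and methods give 0.3 µM doxorubicin, and the series' design text gives 3 µM.

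Reads on genes numbered 15839054 to 25086085 per untreated Scr library, 13611339 to 17771010 per untreated library labelled TRPM2 KO, 10481177 to 16711477 per Scr library after doxorubicin, and 15545604 to 16982973 per library labelled TRPM2 KO after doxorubicin. Values are the authors' read counts scaled to library size (normalized CPM), and 3 reads equal between 0.118 and 0.285 normalized CPM. Untreated and doxorubicin libraries were normalized in separate tables: the levels printed below are those values, while tests of doxorubicin used CPM recomputed over all 16 libraries. The shallowest library, Scr16 replicate 1 after doxorubicin, also correlated least with the others of its group over all genes tested (median r of 0.972, against 0.979 to 0.990 for the other 15).

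Reads on TRPM2 were not lower in the untreated libraries labelled TRPM2 KO, but higher. The 2 replicates of KO11 held 35 and 37 reads and those of KO28 held 21 and 30 reads, whereas Scr13 held 3 and 2 reads and Scr16 held 0 and 0. After doxorubicin KO11 held 19 and 29 reads, KO28 held 21 and 11, Scr13 held 1 and 1, and Scr16 held 14 and 6. The untreated groups did not overlap, with means of 1.94 ± 0.38 normalized CPM (SD, n = 4) in libraries labelled TRPM2 KO and 0.0583 ± 0.0673 in Scr libraries (exact permutation p = 0.0286), and after doxorubicin they did (exact permutation p = 0.0857). The untreated Scr libraries hold no more than 3 reads each, so no fold is given. The study's methods state that the clones were authenticated by RT-PCR and Western blotting, and that the edit removed the start of the coding sequence and shifted the reading frame of the rest, which need not remove the transcript. Since no position within the gene is known for these reads, they do not measure what the edit removed, and every direction below is between libraries as labelled. Noradrenergic neuroblastoma markers were abundant as a sum: 12 genes gave 6275 to 7599 normalized CPM. HAND2 stood at 1281 to 1765 and DBH at 1204 to 2140. Not all were abundant: TH was at most 1.13, and CHGA had group means from 0.898 to 7.93 with a highest value of 26.4. Of 6 immune markers, 2 were in the tables, and their sum was at most 1.22 normalized CPM in any library.

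The 10 genes spanned a wide range of levels. Per kilobase of merged exons, DNMT1 was highest in untreated Scr libraries, with levels of 36.5 to 39.2 normalized CPM per kb (n = 4). DNMT3A followed with a mean of 26.3, UHRF1 at 23.4 and EZH2 at 21.7 normalized CPM per kb, and the ranges of DNMT3A and UHRF1, and of UHRF1 and EZH2, overlapped. SUZ12 had a level of 16.6, TET3 of 12.1 and TET1 of 7.55 normalized CPM per kb, with no overlap between neighbours in this order. The 3 lowest genes were EZH1 at 4.73, DNMT3B at 3.87 and EED at 2.88 normalized CPM per kb, and the ranges of EZH1 and DNMT3B overlapped. After doxorubicin UHRF1 moved from the third place to the fifth in Scr libraries, with a mean level of 14.2 normalized CPM per kb and a range that overlapped that of SUZ12 in the fourth place. In libraries labelled TRPM2 KO it moved from the fourth place to the sixth, with 10.3 normalized CPM per kb. Its range there overlapped that of EZH2 in the third place without treatment and that of TET3 in the fifth after doxorubicin, so these neighbours are not distinct.

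**Figure D1:**
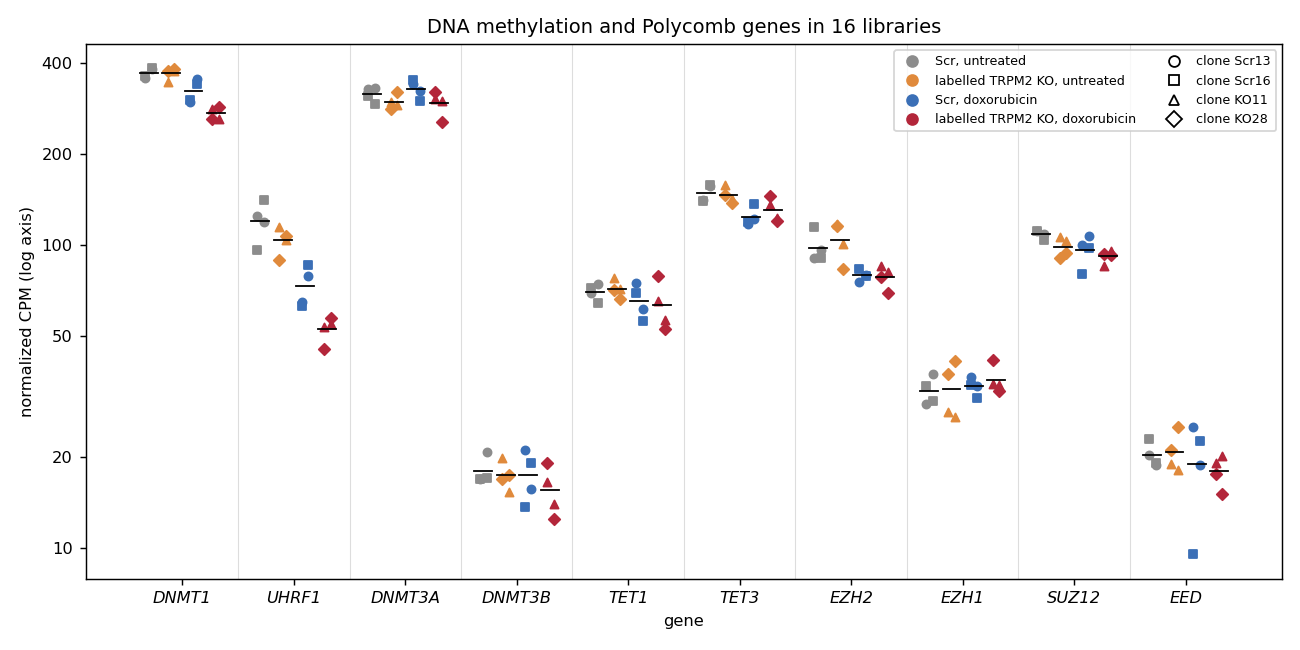
Normalized CPM (log axis) of each of the 10 genes in 16 libraries, coloured by group, with the point shape giving the clone and the bar the mean of 4 libraries. UHRF1 is lowest in libraries labelled TRPM2 KO after doxorubicin, at 45.4 to 57.4 normalized CPM, whereas DNMT3A stays between 256 and 351 in all libraries.

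Whether doxorubicin changed these genes was asked separately in each genotype, in 1 limma fit of all 16 libraries on log2(CPM + 1). In Scr clones 3 of the 10 genes passed the test, all lower (UHRF1, EZH2 and TET3), and 0 were higher, where 5.04% of 15325 genes tested were called lower and 6.41% higher. In clones labelled TRPM2 KO 3 of the 10 were lower (UHRF1, DNMT1 and EZH2) and 0 higher, where 6.95% of all genes were lower and 9.67% higher. The balance of all calls depended on the scaling: with library size alone, 903 genes were higher and 954 lower in Scr clones (982 and 773 as fitted), and 1274 higher and 1337 lower in clones labelled TRPM2 KO (1482 and 1065 as fitted). The median log2 fold change of the 10 genes was -0.18 in Scr clones and -0.17 in clones labelled TRPM2 KO, beside -0.01 and 0.02 over all genes tested. In the CPM normalized over all 16 libraries that this fit used, the groups did not overlap for 3 of the 10 genes in Scr clones, against 16.5% of all genes, and for 2 of the 10 in clones labelled TRPM2 KO, against 19.0%. In bulk RNA, fewer cells that express a gene and less of its RNA per cell cannot be told apart.

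UHRF1, the reader of half-methylated DNA, stood at 125, 120, 96.5 and 141 normalized CPM in the 4 untreated Scr libraries and at 65.0, 79.1, 62.8 and 85.8 after doxorubicin (replicates 1 and 2 of Scr13, then of Scr16). In libraries labelled TRPM2 KO it stood at 115, 104, 89.3 and 107 without treatment and at 53.5, 54.9, 45.4 and 57.4 after doxorubicin (replicates 1 and 2 of KO11, then of KO28). Every treated library lay below every untreated library of its genotype. The log2 fold change was -0.71 ± 0.11 (SE) in Scr clones, 0.609 of the untreated level (95% interval 0.521 to 0.712, adjusted p = 3.6e-05, limma with Benjamini-Hochberg adjustment). In clones labelled TRPM2 KO it was -0.96 ± 0.11, 0.513 of the untreated level (95% interval 0.439 to 0.600, limma adjusted p = 1.7e-07). By clone, the mean fell by 41.0% in Scr13, 37.5% in Scr16, 50.7% in KO11 and 47.6% in KO28. Both calls held with each of the 16 libraries left out in turn.

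DNMT1, the maintenance methyltransferase, was at 358, 383, 364 and 384 normalized CPM in untreated Scr libraries and at 298, 355, 302 and 342 after doxorubicin (Scr13, then Scr16). In libraries labelled TRPM2 KO it was at 347, 376, 377 and 383 without treatment and at 282, 261, 261 and 286 after doxorubicin (KO11, then KO28). The treated libraries labelled TRPM2 KO were all below the untreated ones. The values printed for the Scr groups do not overlap either, but in the CPM normalized over all 16 libraries they do. The log2 fold change was -0.44 ± 0.07 (SE) in clones labelled TRPM2 KO, 0.737 of the untreated level (95% interval 0.667 to 0.814, limma adjusted p = 3.5e-05), and it passed with each library left out. In Scr clones it was -0.21 ± 0.07, 0.867 of the untreated level (95% interval 0.785 to 0.958), and missed the threshold with a limma adjusted p of 0.0554. That adjusted p was 0.0271 with DESeq2, 0.0224 with scaling by library size alone, 0.0476 with at least 10 reads in every library and 0.0372 with a replicate block, and 0.0230, 0.0425 and 0.0497 in limma without Scr13 doxorubicin replicate 2, Scr16 doxorubicin replicate 2 and KO28 untreated replicate 2. S1PR2 overlaps DNMT1 exons on the same strand and held 1104 reads over all libraries.

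EZH2, the main catalytic subunit of PRC2 in dividing cells, was at 90.6, 96.6, 115 and 90.9 normalized CPM in untreated Scr libraries and at 75.8, 80.0, 83.4 and 78.9 after doxorubicin. In libraries labelled TRPM2 KO it was at 117, 101, 116 and 83.3 without treatment and at 85.4, 81.6, 78.5 and 69.6 after doxorubicin. The Scr groups did not overlap, and those labelled TRPM2 KO overlapped through the untreated replicate 2 of KO28. The log2 fold change was -0.39 ± 0.10 (SE) in clones labelled TRPM2 KO (0.764 of the untreated level, 95% interval 0.664 to 0.878, limma adjusted p = 0.00571) and passed with each library left out, but not without clone KO11 (0.0998). In Scr clones it was -0.30 ± 0.10 (0.813 of the untreated level, 95% interval 0.707 to 0.935, limma adjusted p = 0.0463). The call in Scr clones was lost with 11 of the 16 libraries left out in turn. The adjusted p was 0.0506 to 0.0547 without KO11 untreated replicate 2, either KO11 doxorubicin replicate, Scr16 untreated replicate 2, Scr16 doxorubicin replicate 1 or KO28 doxorubicin replicate 1. It was 0.0702 to 0.118 without Scr13 untreated replicate 2, either Scr13 doxorubicin replicate or Scr16 doxorubicin replicate 2, and 0.205 without Scr16 untreated replicate 1. The call also missed without a filter (0.128), with DESeq2 size factors (0.0507) and without clone Scr13 (0.226) or Scr16 (0.354).

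Promoters of the 3 genes that fell in clones labelled TRPM2 KO, and of the de novo methyltransferase DNMT3A, which did not pass the test, are shown because those 3 moved in the same direction. UHRF1 and DNMT1 lie on chromosome 19, EZH2 on chromosome 7 and DNMT3A on chromosome 2. The E2F family, which turns on genes for entry into S phase, is known to bind sites close to TTTCCCGC, TTTCGCGC, TTTGGCGC and TTTGCCGC. These letters were searched on both strands of RefSeq windows (GRCh38.p14) from 250 bases before to 50 bases after each annotated start. The annotated starts covered all 10 genes, with 21 windows. Each stretch runs from 90 bases before the start to 10 after it, on the strand of the gene, 5′ to 3′, with a match in capitals.
UHRF1, chr19:4909411-4909510, plus strand: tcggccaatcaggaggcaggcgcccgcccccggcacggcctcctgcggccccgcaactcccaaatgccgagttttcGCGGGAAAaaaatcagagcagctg
DNMT1, chr19:10194944-10195043, minus strand: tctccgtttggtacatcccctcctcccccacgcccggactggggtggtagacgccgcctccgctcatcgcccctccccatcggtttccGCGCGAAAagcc
EZH2, chr7:148884282-148884381, minus strand: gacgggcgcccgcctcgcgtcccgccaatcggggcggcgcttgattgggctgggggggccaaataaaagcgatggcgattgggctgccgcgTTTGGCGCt
DNMT3A, chr2:25342581-25342680, minus strand: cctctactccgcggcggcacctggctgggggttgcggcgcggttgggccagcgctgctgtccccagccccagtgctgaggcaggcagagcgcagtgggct

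The match in UHRF1 is TTTCCCGC read on the opposite strand, at positions -14 to -7 from the start, and the window of its start at position 4910144 holds TTTCGCGC at positions -160 to -153 from that start. DNMT1 holds TTTCGCGC on the opposite strand across the start, and EZH2 holds TTTGGCGC from the second to the ninth transcribed base. SUZ12 (TTTCCCGC, from position -189) and EZH1 (TTTGCCGC, opposite strand, from position -115) also held a match, and the windows of DNMT3A, DNMT3B, TET1, TET3 and EED held none. Thus 5 of the 10 genes had a match in at least 1 window, where 3.99% of 27305 genes in the table did. The 3.99% is not a like background, so no enrichment is read from it. Each motif holds a CG, and most windows of the 10 genes hold more CpG sites than the median over all windows. The 10 genes also have 21 windows, against 35116 windows for the 27305 genes. Singly, TTTCCCGC was found in 1.63% of 35116 windows, TTTCGCGC in 0.515%, TTTGGCGC in 0.652% and TTTGCCGC in 0.607%. A match is a description of letters in a window, and SUZ12 and EZH1, which hold one, did not pass the test with doxorubicin. TET3, whose windows hold none, passed it in Scr clones. Other windows of UHRF1 (start at position 4910367) and EZH2 (start at position 148883485) held no match either. The windows also differed in CpG content. The EZH2 window shown in part above holds 46 CpG sites in 300 bases and that of DNMT1 30. That of EED holds 16 and that of DNMT3B 3, beside a median of 14 over all windows. Windows without a match could be as rich: 46 sites for DNMT3A (start at position 25341925), 45 for TET3 (73984910) and 46 for UHRF1 (4910367). CpG content thus did not separate windows with a match from those without.

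The partner subunits of EZH2, SUZ12 with a promoter match and EED without one, did not pass the test in either genotype. SUZ12, which holds the complex together, had log2 fold changes with doxorubicin of -0.18 ± 0.08 in Scr clones (limma adjusted p = 0.176) and -0.10 ± 0.08 in clones labelled TRPM2 KO (0.489). It ranged from 80.4 to 111 normalized CPM over the 16 libraries. EED, which binds trimethylated lysine 27, had log2 fold changes of -0.17 ± 0.19 and -0.19 ± 0.19 (adjusted p of 0.645 and 0.553), and its value of 9.51 normalized CPM in Scr16 doxorubicin replicate 1 lay below the 15.1 to 25.1 of the other 15 libraries. EZH1, the other catalytic subunit, had log2 fold changes of 0.05 ± 0.13 and 0.12 ± 0.13, with adjusted p of 0.872 and 0.595. The ratio of EZH2 to EZH1, each per kilobase, had a median of 4.63 in untreated Scr libraries (3.99 to 5.17) and 3.67 after doxorubicin (3.19 to 3.91), without overlap. In libraries labelled TRPM2 KO the median was 5.27 (3.10 to 6.43) without treatment and 3.45 (2.92 to 3.79) after doxorubicin, and these ranges overlapped. SUZ12 has a pseudogene with near-identical sequence, and how reads on both were counted is not given in the sources used here, so its level is uncertain.

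The de novo methyltransferases did not pass the test with doxorubicin. DNMT3A ranged from 292 to 332 normalized CPM in untreated Scr libraries and from 299 to 351 after doxorubicin, and from 281 to 322 and 256 to 320 in those labelled TRPM2 KO. Its log2 fold change was 0.05 ± 0.07 in Scr clones (95% interval -0.10 to 0.20, limma adjusted p = 0.727) and -0.01 ± 0.07 in clones labelled TRPM2 KO (95% interval -0.16 to 0.14, adjusted p = 0.947). These intervals exclude a fall as large as that of UHRF1 in either genotype. DNMT3B, at 12.4 to 21.1 normalized CPM, had log2 fold changes of -0.06 ± 0.16 and -0.16 ± 0.16, with adjusted p of 0.872 and 0.547. The ratio of DNMT1 to DNMT3A per kilobase had a median of 1.42 in untreated Scr libraries (1.34 to 1.61) and 1.21 after doxorubicin (1.05 to 1.40), and these ranges overlapped. In those labelled TRPM2 KO it was 1.53 (1.43 to 1.65) and 1.10 (1.00 to 1.37), without overlap.

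Of the TET enzymes, TET3 was lower after doxorubicin in Scr clones. It was at 141, 156, 140 and 159 normalized CPM without treatment and at 118, 122, 119 and 137 after doxorubicin, every treated library being below the untreated ones. Its log2 fold change came to -0.27 ± 0.08 (SE; 0.832 of the untreated level, 95% interval 0.744 to 0.930, limma adjusted p = 0.0252). The call was lost with 5 of the 16 libraries left out, namely Scr13 untreated replicate 2 (adjusted p = 0.0781), both Scr13 doxorubicin replicates (0.0793 and 0.0508), Scr16 untreated replicate 2 (0.0892) and Scr16 doxorubicin replicate 1 (0.0627), and without clone Scr13 (0.335) or Scr16 (0.131). In clones labelled TRPM2 KO the TET3 log2 fold change was -0.16 ± 0.08 (adjusted p = 0.186). TET1 had log2 fold changes of -0.11 ± 0.11 in Scr clones and -0.19 ± 0.11 in clones labelled TRPM2 KO, with adjusted p of 0.586 and 0.254.

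**Figure D2:**
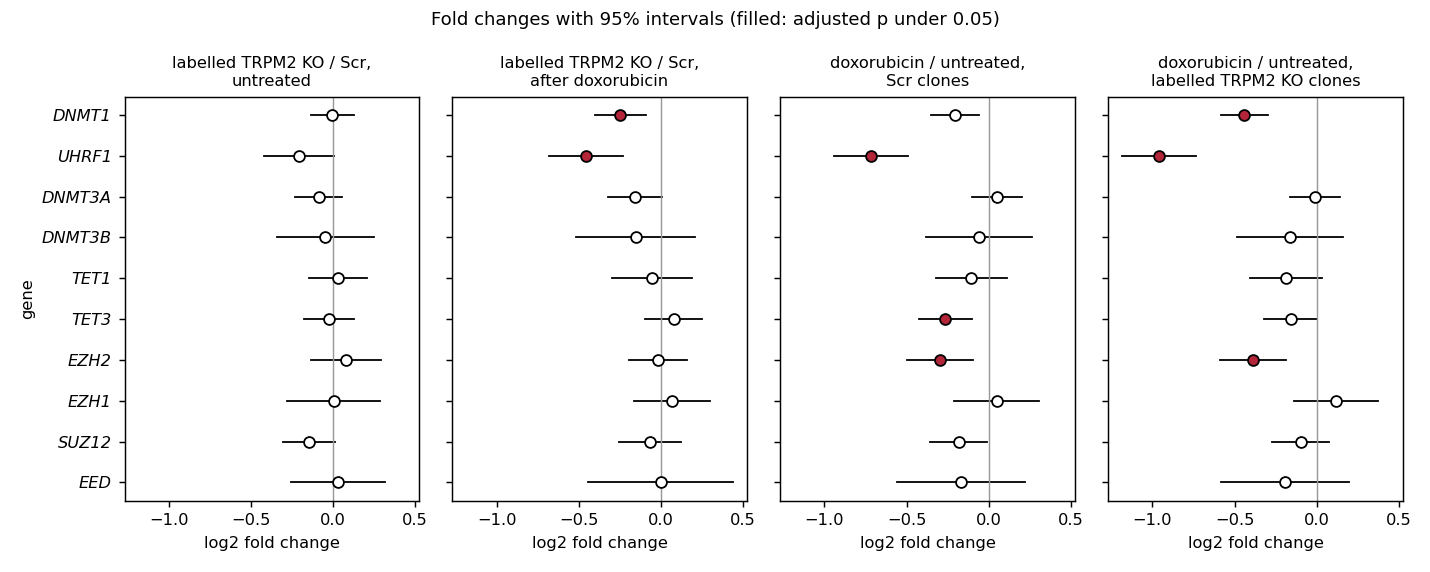
Log2 fold changes (x axis) of the 10 genes in 4 comparisons, with 95% intervals from limma and filled points where the adjusted p was under 0.05. UHRF1 lies at -0.71 in Scr clones and -0.96 in clones labelled TRPM2 KO after doxorubicin, and no point is filled in the untreated comparison of the genotypes.

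The difference between libraries labelled TRPM2 KO and Scr libraries was then tested within each treatment. After doxorubicin 2 of the 10 genes were lower in libraries labelled TRPM2 KO, DNMT1 and UHRF1, and 0 were higher, where 4.17% of 14572 genes tested were lower and 4.52% higher. The same 2 genes were those whose groups did not overlap, against 13.2% of all genes. The mean level of DNMT1 was 273 ± 13 normalized CPM (SD, n = 4) in libraries labelled TRPM2 KO and 324 ± 29 in Scr libraries, and that of UHRF1 was 52.8 ± 5.2 and 73.2 ± 11.1. The treated libraries labelled TRPM2 KO also enter the comparison with untreated libraries above, so both sets of values rest on them.

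UHRF1 had a log2 fold change of -0.46 ± 0.11 (SE) after doxorubicin, 0.728 of the Scr level (95% interval 0.623 to 0.851, limma adjusted p = 0.00806, exact permutation p = 0.0286, the smallest that 4 against 4 libraries allow). It passed with each of the 8 libraries left out, with adjusted p up to 0.0454, and missed without a filter (0.0576) and without clone KO11 (0.0594) or KO28 (0.101). DNMT1 had a log2 fold change of -0.25 ± 0.08, 0.843 of the Scr level (95% interval 0.756 to 0.940, limma adjusted p = 0.0446, exact permutation p = 0.0286). With 1 library left out the DNMT1 call was lost in 6 of 8 fits: without KO11 replicate 1 (adjusted p = 0.0815) or 2 (0.114), Scr13 replicate 2 (0.144), Scr16 replicate 2 (0.134), and KO28 replicate 1 (0.123) or 2 (0.0582). It was also lost without a filter (0.123) and without clone KO11 (0.267), Scr13 (0.105), Scr16 (0.0967) or KO28 (0.216). Over the means of the 4 clones the adjusted p was 0.0394 for DNMT1 and 0.00937 for UHRF1.

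The other 8 genes did not pass the test after doxorubicin. The log2 difference of EZH2 was -0.02 ± 0.09 (95% interval -0.19 to 0.16, limma adjusted p = 0.944), with mean levels of 78.8 ± 6.7 and 79.5 ± 3.1 normalized CPM in the libraries labelled TRPM2 KO and in Scr libraries. DNMT3A had a log2 difference of -0.16 ± 0.08 (adjusted p = 0.275) and DNMT3B of -0.15 ± 0.17 (0.700). The log2 differences of SUZ12, EED, EZH1, TET1 and TET3 were -0.07, 0.00, 0.07, -0.05 and 0.08, with adjusted p from 0.672 to 0.998.

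Without treatment 0 of the 10 genes differed by limma, where 4.84% of 14364 genes were called, and 0 of the 10 had groups that did not overlap, against 9.29% of all genes. At an unadjusted p under 0.05 the count was 0 as well, and edgeR's quasi-likelihood test and DESeq2 also called 0. DNMT1 had mean levels of 371 ± 16 normalized CPM (SD, n = 4) in libraries labelled TRPM2 KO and 372 ± 13 in Scr libraries, a log2 fold change of 0.00 with a 95% interval from -0.14 to 0.13. UHRF1 had the largest difference of the 10, -0.20 ± 0.10 on the log2 scale (95% interval -0.42 to 0.01, limma adjusted p = 0.378). The log2 differences of the remaining 8 genes lay between -0.14 for SUZ12 and 0.08 for EZH2.

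Whether the response to doxorubicin depended on the genotype was tested as an interaction over the 16 libraries. None of the 10 genes passed, and 0.0196% of 15325 genes did. DNMT1 had an interaction of -0.24 ± 0.10 on the log2 scale (95% interval -0.44 to -0.03, limma adjusted p = 0.589), the 1 gene of the 10 with an unadjusted p under 0.05, and edgeR's quasi-likelihood test and DESeq2 called 0 of the 10. UHRF1 had -0.25 ± 0.16 (95% interval -0.57 to 0.07, adjusted p = 0.765). The larger falls of DNMT1 and UHRF1 in clones labelled TRPM2 KO are therefore not shown to differ from those in Scr clones.

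**Figure D3:**
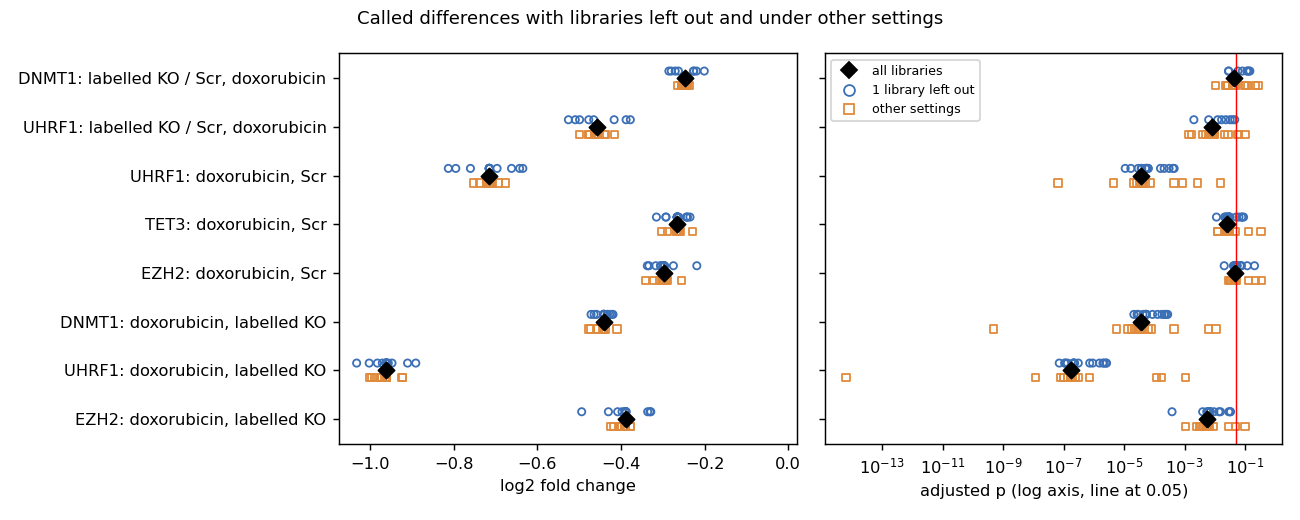
Log2 fold change (left) and adjusted p on a log axis (right) of each called difference, as reported (diamonds), with 1 library left out (circles) and under other settings (squares). No log2 fold change changes sign, and at least 1 alternative crosses the line at 0.05 for each call except those of UHRF1 in both genotypes and of DNMT1 in clones labelled TRPM2 KO with doxorubicin.

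Other genes of DNA methylation were described from a list of 19, of which 18 were tested. After doxorubicin 1 of 18 was lower in Scr clones and 5 of 18 in clones labelled TRPM2 KO, and 0 were higher in either, beside 5.04% and 6.95% of all genes tested that were lower. The count in Scr clones is thus near the share over all genes. CDCA7, which with the remodeller HELLS opens chromatin for maintenance methylation, ranged from 69.5 to 80.4 normalized CPM in untreated Scr libraries and from 47.9 to 50.6 after doxorubicin. Its log2 fold change was -0.59 ± 0.08 in Scr clones (limma adjusted p = 1.5e-05) and -0.53 ± 0.08 in clones labelled TRPM2 KO (3.7e-05). The others lower in clones labelled TRPM2 KO were MBD3, a subunit of the NuRD corepressor (-0.42, adjusted p = 0.00357), CXXC4, which binds unmethylated CpG sites (-0.35, 0.0179), HELLS (-0.31, 0.0337) and the isocitrate dehydrogenase IDH2 (-0.27, 0.0374). IDH2 was named after its value was seen. The list's median log2 fold change with doxorubicin was -0.15 in Scr clones and -0.16 in clones labelled TRPM2 KO.

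Among 10 accessory genes of PRC2, 7 were tested. RBBP4, a histone-binding subunit, had log2 fold changes with doxorubicin of -0.33 ± 0.07 in Scr clones and -0.29 ± 0.07 in clones labelled TRPM2 KO (limma adjusted p of 0.00108 and 0.00278). PHF19, a Polycomb-like protein that helps PRC2 bind chromatin, fell by 0.39 and 0.70 on the log2 scale (adjusted p of 0.0077 and 6.3e-06). LCOR, whose locus also encodes a PRC2-associated protein, was higher in clones labelled TRPM2 KO after treatment (0.36, adjusted p = 0.0272). After doxorubicin PHF19 was lower (-0.33, adjusted p = 0.0484) and LCOR higher (0.35, 0.0468) in libraries labelled TRPM2 KO than in Scr libraries.

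Of 22 genes of Polycomb repressive complex 1, which ubiquitinates histone H2A, 20 were tested. With doxorubicin 3 of the 20 were called in Scr clones and 3 in clones labelled TRPM2 KO, counts near the shares over all genes tested (1755 and 2547 of 15325). In Scr clones doxorubicin lowered BMI1 (-0.37, limma adjusted p = 0.0285) and PCGF1 (-0.39, 0.034), which pair with the ubiquitin ligase subunit. In clones labelled TRPM2 KO it lowered CBX2 (-0.39, adjusted p = 0.000556), CBX8 (-0.29, 0.0346) and KDM2B (-0.33, 0.00977), which brings the complex to CpG islands. The medians of the list, -0.02 and 0.00, were close to those of all genes tested.

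Of 6 genes that remove lysine 27 methylation or H2A ubiquitin, KDM6B, a lysine 27 demethylase, was higher in 3 comparisons. It ranged from 136 to 148 normalized CPM in untreated Scr libraries and from 169 to 189 in untreated libraries labelled TRPM2 KO, without overlap (log2 fold change 0.31 ± 0.07, limma adjusted p = 0.00822). With doxorubicin it rose by 0.43 ± 0.08 on the log2 scale in Scr clones (adjusted p = 0.000706) and by 0.27 ± 0.08 in clones labelled TRPM2 KO (0.026). Of 12 germline genes whose promoters are methylated in most somatic cells, 5 were in the tables and 1 was abundant enough to test, TEX14, at adjusted p from 0.275 to 0.654.

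**Figure D4:**
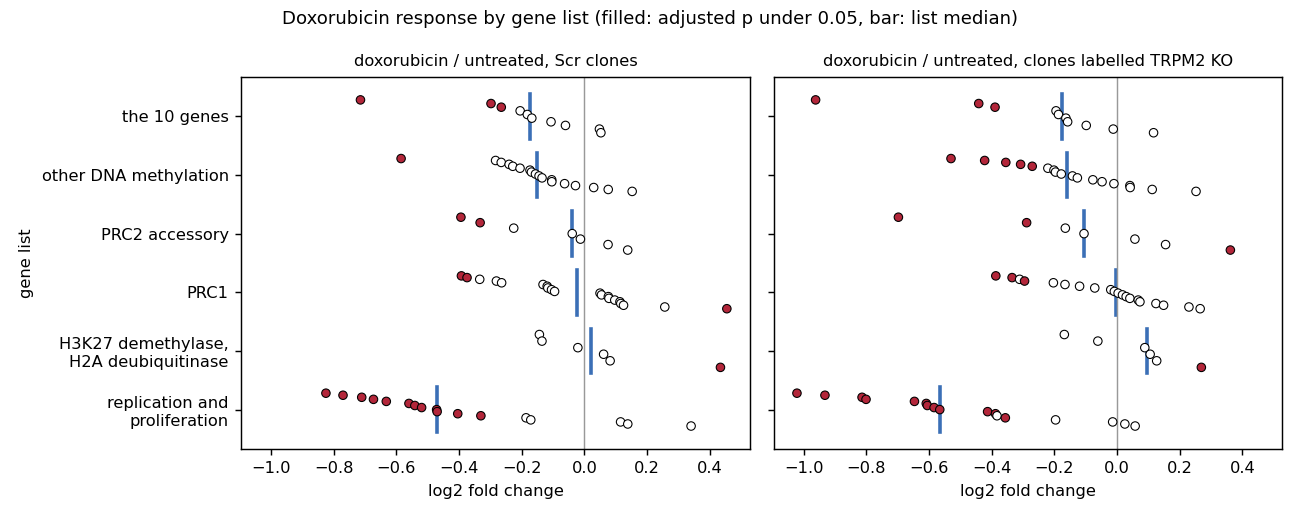
Log2 fold change with doxorubicin of each gene of 6 lists in Scr clones (left) and in clones labelled TRPM2 KO (right), filled where the limma adjusted p was under 0.05, with a bar at the list median. The list of replication and proliferation genes lies furthest left, with medians of -0.47 and -0.57, and the medians of the PRC1 list are near 0.

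Genes of DNA replication and proliferation moved with the same treatment. The list of 17 holds 15 genes of DNA replication and S phase entry, and MKI67 and TOP2A, which peak in G2 and mitosis, TOP2A being also a target of doxorubicin. Of the 17, 12 were lower after doxorubicin in Scr clones and 12 in clones labelled TRPM2 KO, and 0 were higher. Over all genes tested, 5.04% and 6.95% were lower. The medians of the list were -0.47 and -0.57 on the log2 scale. The helicase subunits MCM5 and MCM6 had log2 fold changes of -0.77 and -0.71 in Scr clones and -0.93 and -1.02 in clones labelled TRPM2 KO (limma adjusted p up to 5.2e-06). CDC45 had -0.67 and -0.80 (adjusted p of 8.7e-05 and 4.3e-06), CCNE2 had -0.82 in Scr clones (0.00199) and -0.38 in clones labelled TRPM2 KO (0.148), and GINS2 had -0.56 (0.000703) and -0.81 (2.6e-06). Between genotypes 5 of the 17 were lower in libraries labelled TRPM2 KO after doxorubicin, beside 4.17% of all genes tested. Among the 5 were MCM2 (-0.93, adjusted p = 1.4e-07), MCM6 (-0.51, 0.000203), CDT1 (-0.43, 0.0187) and TOP2A (-0.41, 0.000816). MCM2 was the 1 of 17 lower without treatment (-0.75, adjusted p = 7.2e-07), where 4.84% of all genes tested were called. Without MKI67 and TOP2A, a choice made after seeing the data, 12 of 15 were lower with doxorubicin in Scr clones, 11 of 15 in clones labelled TRPM2 KO and 4 of 15 between genotypes after doxorubicin. In all but 2 libraries MKI67 was the most abundant gene of the list, and TOP2A in those 2. The 17 genes summed to 4838 to 5405 normalized CPM in untreated Scr libraries, 3983 to 4682 after doxorubicin, and to 4797 to 4963 and 3564 to 3730 in those labelled TRPM2 KO. The 15 genes alone summed to 3228 to 3554, 2309 to 2955, 3035 to 3182 and 2081 to 2353 normalized CPM in the same order. Their part in the values of UHRF1, DNMT1 and EZH2 was not tested.

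Markers of fibroblasts and stromal cells differed between the genotypes as well. Of 10 such genes, 7 were higher and 1 lower in untreated libraries labelled TRPM2 KO, and 6 of 9 tested were higher and 1 lower after doxorubicin. Over all genes tested, 4.84% were called between genotypes without treatment, and 4.52% were higher and 4.17% lower after doxorubicin. On the log2(CPM + 1) scale LUM (3.24), COL3A1 (2.88), DCN (2.45) and FN1 (2.14) had the largest differences after doxorubicin. Their limma adjusted p ran from 2.2e-08 to 2.8e-05. The added 1 shrinks differences of genes at low levels, so the order of COL3A1 and DCN rests on it. After doxorubicin the means in libraries labelled TRPM2 KO and Scr libraries were 7.09 and 0.489 normalized CPM for DCN, and 189 and 35.1 for COL3A1. TWIST1 was the gene that was lower (-0.64, limma adjusted p = 6.7e-06), and it was named after its value was seen. The 10 genes summed to 928 to 1220 normalized CPM in untreated libraries labelled TRPM2 KO, 484 to 972 in untreated Scr libraries, and 934 to 1296 and 513 to 797 after doxorubicin. VIM was the most abundant in the libraries labelled TRPM2 KO and TWIST1 in the Scr libraries after doxorubicin, and COL1A2 was at 0 in 2 of the latter. LUM ranged from 9.92 to 16.3 normalized CPM in libraries labelled TRPM2 KO after doxorubicin and DCN from 6.33 to 8.04. With doxorubicin, DCN was higher and COL1A2 and PDGFRA lower in clones labelled TRPM2 KO (1.23, -0.98 and -1.24 on the log2 scale, limma adjusted p of 0.00113, 0.0213 and 0.00903). Of 11 noradrenergic markers tested, 3 were higher and 1 lower between genotypes without treatment, and 2 higher and 1 lower after doxorubicin. With doxorubicin 1 rose and 1 fell in Scr clones, and 3 rose and 3 fell in clones labelled TRPM2 KO. Over all genes tested, 6.41% rose and 5.04% fell in Scr clones, and 9.67% rose and 6.95% fell in clones labelled TRPM2 KO. Reads on mitochondrial genes took 5.42% to 8.10% of libraries labelled TRPM2 KO after doxorubicin and 4.86% to 5.83% of Scr libraries, against 3.87% to 6.41% and 4.19% to 4.89% without treatment. The part of these differences in the values of DNMT1, UHRF1 and EZH2, between genotypes or with doxorubicin, was not tested.

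Over the 16 libraries the log2 levels of DNMT1 and UHRF1 had a Pearson r of 0.919, the highest between any pair of the 10 genes, and those of EZH2 had r of 0.595 with DNMT1 and 0.582 with UHRF1. DNMT3A had r of -0.01 with DNMT1 and 0.00 with UHRF1, and EZH1 had -0.29 with EZH2. These values describe libraries that share clones and a treatment, and so carry no test. Over all genes tested, UHRF1 was most like GTF3C4 (r = 0.973), the dUTPase gene DUT (0.960) and the DNA break sensor PARP1 (0.959). DNMT1 was most like SAPCD2 (0.969), PHF19 (0.963) and ZNF423 (0.961). EZH2 was most like TRIT1, TTLL5 and the chromatin remodeller SMARCA5 (0.923, 0.923 and 0.913), and SUZ12 most like CDK5RAP2, NCAPG2 and ZNF367 (0.919, 0.911 and 0.896). TET3 followed POLR1A and RPAP2 (0.890 and 0.873), EED followed ABITRAM, DNAJC24 and RBKS (0.885 to 0.868), and DNMT3B followed PRORP, PECR and NME6 (0.880 to 0.790). EZH1 followed ACACB and LINC01569 (0.855 and 0.805), DNMT3A followed SORL1, TBX6 and TPPP (0.850 to 0.838), and TET1 followed ROBO1, ACVR2B and NANP (0.826 to 0.821).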

How the data were processed

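Libraries were made with the NEXTflex directional kit from poly(A) RNA. The submitters' processing notes name bcl2fastq, HISAT2 2.1.0, HTSeq, edgeR and GRCh38, and the annotation release, the strand setting and the counting mode are not given in the sources used here. The deposited library values are a normalized signal that the authors made from read counts scaled to the effective library size (normalized CPM), with factors of 0.974 to 1.03. All values were whole multiples of 1 read (100%, largest deviation 8.0e-05), so reads were recovered. The authors' own fold changes, p-values and q-values stand in other columns of the tables and were not used. No column of library values was left unassigned.

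Genotypes were compared within each table of 8 libraries on log2(normalized CPM + 1) by limma 3.58.1 (R 4.3.3), whose prior variance followed abundance, over genes reaching 1 normalized CPM in 4 or more libraries. Doxorubicin responses and the interaction came from 1 fit of 16 libraries on CPM recomputed from the recovered reads with trimmed-mean factors, since each table holds 1 treatment. Benjamini-Hochberg adjustment covered all genes tested (threshold 0.05). For the 10 genes 40 two-sided exact permutation tests were run, besides those of TRPM2. Fold changes are on the log2(CPM + 1) scale. The 10 genes and the lists were chosen with earlier results of these data known. Named were the 10 genes, TRPM2, up to 4 genes per other list and comparison with the largest change past the threshold, and the 3 genes most like each of the 10. A few genes that this rule names are not reported here. Replicates of 1 clone and treatment differed beyond counting noise, and none was merged. Floors of 3 reads cover counting error only. Exon lengths and gene positions came from GENCODE 29 (symbols for 95.0% and positions for 95.9% of genes). Lists held 19 other DNA methylation, 10 PRC2 accessory, 22 PRC1, 6 demethylase or deubiquitinase, 12 germline, 17 replication and proliferation, 12 noradrenergic, 10 stromal and 6 immune genes. The fits were tested on simulated counts. Alternatives were edgeR 4.0.16, DESeq2 1.42.0, other scalings, filters and pseudocounts, libraries or clones left out, and clone or replicate terms.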

Additional observations from a re-analysis of the deposited data

Results flagged for a closer look

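DNMT3B was at 20.8 normalized CPM in Scr13 untreated replicate 2, far above the other 3 untreated Scr libraries, the nearest of which was at 17.0. The gap was 0.971 of the range of the group, above Dixon's 95% critical value for 4 samples. It was the 1 such value in 40 groups of 4 libraries (10 genes in 4 groups), and chance alone gives such a value in about 1 group in 20. DNMT3B did not pass the test in any comparison, with or without this library.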

How the results depend on the processing

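Of 1400 values of the 10 genes under alternatives, 1356 stayed on their side of the threshold, 37 calls were lost, 7 were gained and 0 reversed; 73 values that were not called had the other sign. With the genotypes compared after doxorubicin, the count of 2 of the 10 genes became 0 without a filter, without clone KO11 and without clone KO28, and 1 without clone Scr13 or Scr16; with 1 library left out it was 1 to 2. For doxorubicin in Scr clones, 3 became 1 without clone Scr13 or Scr16, and 1 to 4 with 1 library left out. The counts of 0 without treatment and for the interaction did not change. Over all genes, 695 calls without treatment became 368 without a filter, 330 without Scr13 and 327 without Scr16. After doxorubicin, 1266 became 510 without KO11, 575 without KO28 and 814 to 1314 with 1 library left out. The 1755 calls of doxorubicin in Scr clones became 449 without Scr13 and 759 without Scr16, and the 2547 in clones labelled TRPM2 KO became 844 without KO11 and 1291 without KO28. The 3 interaction calls became 31 with DESeq2, 5 without a filter, 11 with a pseudocount of 4, 0 without KO11 or Scr16, 5 without Scr13, 1 without KO28, 5 with the clone as a fixed block, and 1 to 6 with 1 library left out. Fewer samples were fitted where a library or clone was left out, and other causes were not tested. Same-numbered replicates of a treatment hardly deviated together, with r from -0.10 to 0.12 over 12 pairs of clones. Between the treatments of the same clone r was -0.02 to 0.09 over 4 pairs. These values show no pairing by number but cannot exclude one. A replicate block gave 7 interaction calls in place of 3, and 4 of the 10 genes in place of 3 for doxorubicin in Scr clones. The shallow library Scr16 doxorubicin replicate 1 left 1 of the 10 genes called in Scr clones when left out.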
